A study of Mus musculus with 2 samples.

Results

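The tripartite motif (Trim) genes encode a large family of proteins, most of them ubiquitin ligases, and they were followed here in mouse bone marrow-derived macrophages (BMDMs) that met the supernatant of dying T cells. Members were all genes whose array annotation reads Trim, a number and an optional letter, taken from probe sets given to a single gene. By this rule 58 of the 18194 named genes were members, read by 111 probe sets, and where a gene had several the brightest on average over both arrays stood for it. A further 5 probe sets carry a Trim name together with another gene and were used for no gene, which leaves Trim30b and Trim34b without a value here.

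A typical Trim protein holds a RING finger, which recruits an ubiquitin-conjugating enzyme, followed by B-box zinc fingers and a coiled coil through which the proteins pair. The carboxyl-terminal part differs between members and sets what is bound, for example SPRY domains in many antiviral members, NHL repeats in Trim2, Trim3 and Trim32, and a PHD finger with a bromodomain in the chromatin proteins Trim24, Trim28 and Trim33. In macrophages the family is best known for the members that type I interferon induces, which sense or restrict viruses or tune the pathways of the RNA sensor RIG-I, of cGAS and STING, and of the Toll-like receptors.

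The study holds 2 arrays, 1 per condition. Both carry RNA of BMDMs grown with M-CSF for over 7 days from female C57BL/6J mice aged 8 weeks, with no transgene or deletion named. The control cells received medium for 1 h, and the other cells received for 1 h the supernatant of W3 cells, a mouse T cell line made to express Fas and killed with Fas ligand. The labels name RPMI with 10% FCS for the control and the study's methods RPMI with 1% FCS for the W3 supernatant. Whether the medium on the control array was matched to the supernatant in serum could not be settled, and no array with supernatant of living W3 cells was analysed here, so apoptosis, conditioning by W3 cells and serum cannot be told apart. How many mice gave the cells is not given in the sources used here.

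The deposited values are linear intensities, the signals that MAS5 computes for each probe set. A floor of 38.4 was taken from 80 probe sets of olfactory and vomeronasal receptors, signals under it were set to it, and genes above it on either array are called measured. Ratios are supernatant over medium on floored signals, and a ratio with 1 signal under the floor is a lower bound. All 9 macrophage markers were measured, with summed signals of 125586 with medium and 128586 with the supernatant. Of these markers 6 were lower with the supernatant and 3 higher, among the latter Mertk (471 and 1050), 2.23-fold higher. Of 11 T cell markers 9 were under the floor on both arrays, among them Cd3d, Cd3e and Thy1, and the list's summed signals were 395 and 413. The 2 measured ones went opposite ways. Zap70 read 208 with medium and 313 with the supernatant, and Cd8a 72.9 and 20.7, the latter under the floor. Of 8 neutrophil markers 3 were under the floor, and the summed signals were 684 and 896. S100a9, Elane and Ngp passed the floor only through the supernatant array. The part of other cells in the Trim values was not tested. With 1 array per condition no test, SD or p-value can be given for any difference below, and fewer cells expressing a gene cannot be told apart from less RNA per cell.

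No Trim gene differed by 2-fold or more between the conditions on the probe set used. A lower signal with the apoptotic cell supernatant was seen in 10 of the 12 interferon-inducible and antiviral members, beside 54.6% of all measured genes. These 12 are called interferon-inducible for short, and induction by interferon was not measured here. Of the 10, only Trim5 passed 1.5-fold on floored signals, and Trim6 is given only as a bound. Trim12c and Trim14 were higher on their other probe sets. Of the 58 Trim genes 37 were measured, 35 of them above the floor on both arrays. At least 2-fold higher were 0 and at least 2-fold lower 0, against 0.960% and 0.843% of all 11977 measured genes. At a threshold of 1.5-fold 1 member was higher (Trim46) and 1 lower (Trim5), against 3.71% and 4.47% of all measured genes, so the members' shares lie near the background. The median log2 ratio of the 37 measured members was -0.07, and that of all measured genes -0.02. Trim ratios ran from -0.93 to 0.72 on the log2 scale.

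**Figure D1:**
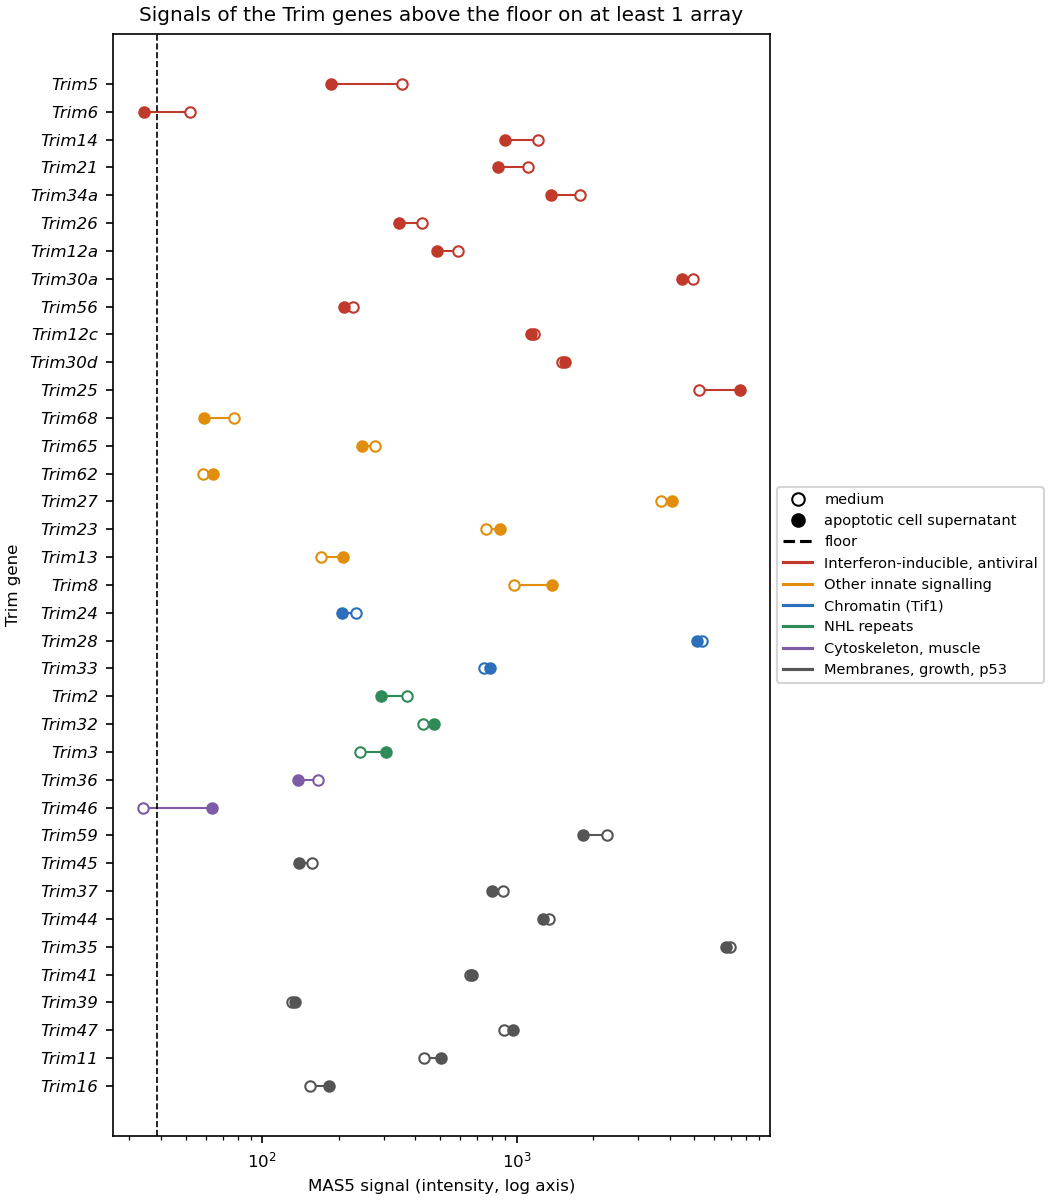
MAS5 signal (intensity, log axis) of each of the 37 measured Trim genes on the medium array (open circles) and the supernatant array (filled circles), coloured by group, with the floor of 38.4 as a dashed line. Trim5 (353 and 186) and Trim25 (5223 and 7585) show the widest gaps among the 35 genes that clear the floor on each array.

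Interferon acts on many of its target genes through the response element that the factor complex ISGF3 and the IRF proteins read. Its core letters, GAAA repeated after 2 bases of any kind, were searched on both strands in the RefSeq promoter windows of build GRCm38.p6, which run from 250 bases before to 50 after a start site. Of 47 member genes with a window 9 held the letters, namely 8 of 11 interferon-inducible members and 1 of 36 others (Trim2, at 1 of its 5 start sites). Over all genes with a window the share was 3.99%, and over all windows 3.44%. The stretches of 30 bases around the match are shown because these genes make up most of the list that was lower. They are written 5′ to 3′ on the strand of the gene, with the matching letters in capitals, and a match on the other strand reads as TTTC repeated after 2 bases.
Trim5 (chr7:104288136-104288165, minus strand): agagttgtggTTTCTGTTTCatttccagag
Trim12a (chr7:104315466-104315495, minus strand): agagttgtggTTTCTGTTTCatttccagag
Trim12c (chr7:104353359-104353388, minus strand): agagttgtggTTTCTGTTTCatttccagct
Trim30a (chr7:104465210-104465239, minus strand): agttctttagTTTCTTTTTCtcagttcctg
Trim30d (chr7:104507871-104507900, minus strand): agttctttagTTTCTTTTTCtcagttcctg
Trim34a (chr7:104244457-104244486, plus strand): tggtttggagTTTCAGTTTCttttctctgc
Trim21 (chr7:102565447-102565476, minus strand): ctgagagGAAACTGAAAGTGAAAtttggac
Trim26 (chr17:36836979-36837008, plus strand): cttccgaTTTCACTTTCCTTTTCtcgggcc
Trim2 (chr3:84212791-84212820, minus strand): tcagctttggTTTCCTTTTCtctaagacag

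In Trim21 and Trim26 2 matches overlap, so the capitals run over 16 bases. Trim5 and Trim12a have the same 30 letters and the stretches shown of Trim30a and Trim30d likewise, as close copies of each other. Trim30a also holds the match at another start site, not shown, where the bases before it differ. Trim6, Trim25 and Trim56 hold no match in their windows, which says only that these letters are absent there.

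The interferon-inducible and antiviral members were listed from textbook knowledge, but with earlier results of these data known, so the list is not independent of them. Of its genes 12 had a probe set of their own, all measured. Trim5, a relative of the human factor that restricts retroviral capsids, gave 353 on the medium array and 186 on the supernatant array, a signal 1.90-fold lower. Trim14, an adaptor without a RING finger that acts with MAVS at mitochondria, read 1216 and 905, 1.34-fold lower. Trim21, a cytosolic receptor for antibody-coated virus, read 1111 and 842, 1.32-fold lower. On these probe sets the 3 genes are lower with the supernatant, and of the 3 ratios that of Trim5 alone passes 1.5-fold. Other probe sets of the latter genes differ from these values. That of Trim14 read 54.2 and 75.2, 1.39-fold higher, so the direction of this gene depends on the probe set. That of Trim21 read 321 and 141, 2.27-fold lower, the only Trim probe set past 2-fold.

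Trim25, the ligase that attaches ubiquitin to RIG-I, went the other way. Its medium array read 5223 and its supernatant array 7585, a log2 ratio of 0.54 or 1.45-fold higher. A second probe set of Trim25 gave 3354 and 4871, also a log2 ratio of 0.54, and the third gave 692 and 791, a log2 ratio of 0.19. All 3 probe sets of this gene are thus higher with the supernatant, and none reaches 1.5-fold.

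The remaining 8 interferon-inducible members were under 1.5-fold apart on floored signals, which for Trim6 is only a bound. Trim34a read 1781 and 1370, Trim26 426 and 345, and Trim12a 588 and 487. Trim30a, which curbs Toll-like receptor signalling through the adaptors Tab2 and Tab3, read 4956 and 4468. Trim56, which acts in the cGAS and STING pathway, read 227 and 209. Trim12c (1176 and 1136) and Trim30d (1509 and 1556) were within 1.04-fold of equal signals. Trim6 read 52.1 with medium and 34.4 with the supernatant, the latter under the floor, so it was at least 1.36-fold lower. Without a floor its log2 ratio was -0.60, which is past 1.5-fold. Trim6 passed the floor only through the array on which it is high.

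Taken as a list, these 12 genes had a median log2 ratio of -0.29, beside 0.03 for the 25 other measured Trim genes and -0.02 for all measured genes. A log2 ratio below 0 was seen in 10 of the 12, in 11 of the 25 other members and in 54.6% of all measured genes. With the floor 2 times as high Trim6 is not measured, and 9 of 11 were below 0 with a median of -0.27. Whether this difference between the lists exceeds the error between arrays was not tested, since the design has no replicate. When all probe sets of a gene were averaged on the log2 scale the median was -0.12, and 8 of 11 measured genes were below 0. Without the 7 members of the chromosome 7 cluster described below, a setting added after the data were seen, it was -0.30, with 4 of 5 below 0.

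**Figure D2:**
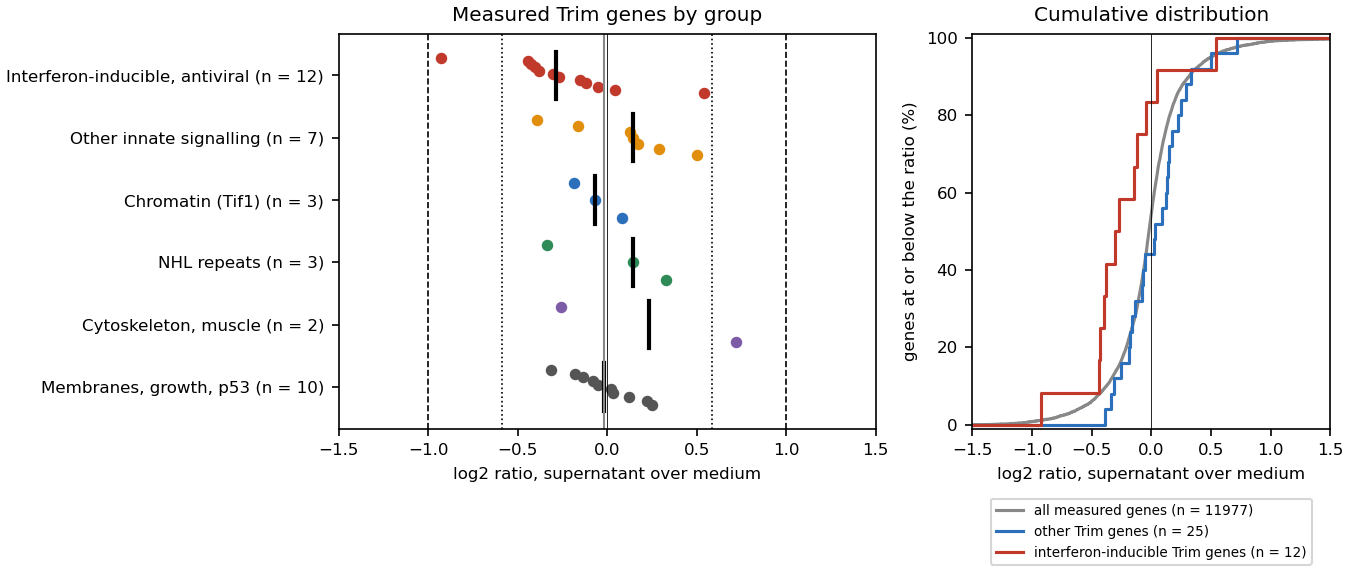
Left, log2 of the supernatant signal over the medium signal, both floored, with a point for each measured Trim gene, by group, with group medians as black bars, the median of all measured genes as a grey line, and 1.5-fold and 2-fold as dotted and dashed lines. Right, the percentage of genes at or below each log2 ratio. The interferon-inducible members (median -0.29) lie left of the other members (0.03) and of all measured genes (-0.02), while Trim25 (0.54) and Trim30d (0.04) lie right of all 3 medians.

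Members that share the same letters had different ratios, with log2 ratios of -0.93 for Trim5, -0.27 for Trim12a and -0.05 for Trim12c. The 9 members with the letters had a median log2 ratio of -0.30, and 8 of them were below 0, with Trim30d (0.04) as the exception. All but Trim2 are interferon-inducible members whose ratios were already counted above, and most lie in a single cluster on chromosome 7. The split by letters is thus no observation separate from that of the list. The 19 measured members that have a window without the letters had a median of 0.02, and 9 of them were below 0. Over all measured genes with a window, 61.7% of the 368 with the letters and 54.0% of the 9379 without were below 0, with medians of -0.05 and -0.02. The share at least 1.5-fold lower was 7.61% with the letters and 4.09% without. The share at least 1.5-fold higher was not computed, so a wider spread of the genes with the letters cannot be told apart from a shift downward. The element TGACGTCA, which CREB reads after a rise of cAMP, was found in the window of 1 member, Trim26, and in 2.03% of all genes. A match is a description of the letters and shows no binding in these cells.

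Most of the interferon-inducible members lie side by side on chromosome 7, where the RefSeq gene table of GRCm38.p6 lists them as neighbours in the order Trim6, Trim34a, Trim5, Trim12a, Trim12c, Trim30a and Trim30d, leaving out those without a value. Their log2 ratios in that order were -0.44, -0.38, -0.93, -0.27, -0.05, -0.15 and 0.04. Trim5 stands apart from both of its neighbours, and the ratios nearest 0 are those of Trim12c, Trim30a and Trim30d. Several of these genes are close copies, so a probe set given to one of them may also have bound RNA of another, and single values in this cluster are uncertain to that extent.

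Among the 7 other measured Trim regulators of innate signalling, 5 had a higher signal with the supernatant, and their median log2 ratio was 0.14. Trim8, which promotes NF-kB signalling through the kinase TAK1, read 977 and 1385, 1.42-fold higher. Its other probe sets gave log2 ratios of 0.42 and 0.12. Trim13, a ligase anchored in the endoplasmic reticulum, read 170 and 207, 1.22-fold higher.
Trim23, which carries a GTPase domain of the ARF type, read 762 and 858, and Trim27 read 3701 and 4090, 1.13-fold and 1.11-fold higher. Trim62, a ligase in the Card9 pathway, read 58.7 and 64.1. Trim68 (77.7 and 59.3) was 1.31-fold lower, but with the floor set 2 times as high its log2 ratio was -0.02. Trim65, which acts on the RNA sensor Mda5, read 277 and 247, and Trim31 was under the floor on both arrays.

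The chromatin members differed little. Trim28, the corepressor recruited by KRAB zinc finger proteins, read 5381 and 5127, a log2 ratio of -0.07. Trim24, a cofactor of nuclear receptors, read 233 and 205, and Trim33, which acts on Smad4, read 742 and 786. The 3 ratios span -0.18 to 0.08 on the log2 scale, and Trim66 was under the floor.

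Of the members with NHL repeats, Trim2 was lower and Trim3 and Trim32 higher with the supernatant. Trim2, a ligase known from neurons, read 371 and 294, 1.26-fold lower, and its 4 measured probe sets all gave negative log2 ratios, from -0.67 to -0.05. Trim3 read 243 and 306, 1.26-fold higher, and Trim32, a ligase mutated in a muscular dystrophy, read 428 and 473. Trim71, known from stem cells, was under the floor.

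Of the cytoskeletal and muscle members 5 of 7 were under the floor on both arrays, namely Trim9, Trim54, Trim63, Trim67 and Trim72. Trim46, which organizes microtubules in axons, read 33.8 with medium and 63.2 with the supernatant. Its medium signal is under the floor, so it was at least 1.65-fold higher. The gene passed the floor only through the array on which it is high, and with the floor 2 times as high it was not measured. Trim36, a ligase that binds microtubules, read 165 and 138, 1.20-fold lower on this probe set, and a log2 ratio of 0.10 on the other.

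The members that act at membranes, in autophagy, in growth or on p53 divided evenly, 5 above and 5 below 0, with a median log2 ratio of -0.02. Trim59, a protein of the endoplasmic reticulum membrane, read 2263 and 1821, 1.24-fold lower, and its other probe set gave a log2 ratio of -0.73. Trim16, which marks damaged lysosomes for autophagy, read 155 and 184, 1.19-fold higher. Trim11 read 432 and 504, and Trim45 read 157 and 139.
Trim35 (6881 and 6635), Trim37 (883 and 803), Trim44 (1345 and 1274), Trim41 (656 and 666), Trim39 (131 and 134) and Trim47 (892 and 970) were all within 1.10-fold. Trim7 was under the floor on both arrays. On the probe sets used, no member of this group reached 1.25-fold. Other, dimmer probe sets did, with Trim59 1.66-fold, Trim35 1.36-fold and Trim44 1.26-fold lower. Those of Trim37 went both ways, 1.27-fold lower on one and 1.26-fold higher on another.

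All 11 members known mostly from erythroid, epithelial, nerve or germ cells were under the floor on both arrays. They were Trim10, Trim15, Trim17, Trim29, Trim40, Trim42, Trim43a, Trim60, Trim61, Trim69 and Trim75. Trim80, which was on none of the lists, was under it too. The highest signal among the 21 members under the floor was 37.5, that of Trim29 with medium, and no order is read among such signals.

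Several probe sets per gene gave a check within the arrays, which covers no error between arrays. Of 23 Trim genes with at least 2 measured probe sets, 17 had all of them on the same side of 0. Among the 9 interferon-inducible genes of this kind 5 were lower on all probe sets (Trim12a, Trim21, Trim26, Trim30a and Trim34a), 1 was higher on all (Trim25), and Trim12c, Trim14 and Trim30d were mixed. Over all measured probe sets, 16 of 22 of the interferon-inducible members and 26 of 50 of the other members had a log2 ratio below 0. In these counts, probe sets above the floor on 1 array only had a direction fixed in advance and check nothing. Those that could only be lower are the dimmest of Trim12a (44.0 and 15.7) and of Trim24 (42.9 and 24.8), and that of Trim6. That of Trim46 could only be higher.
As a scale for these values, the log2 ratios of the brightest pair of probe sets of a gene differed with an SD of 0.25 per probe set over 5196 genes. Of the 37 measured Trim genes 16 had a ratio larger than this in either direction, 8 of them interferon-inducible, and over all measured genes the share was 29.6%. Trim genes with 1 measured probe set numbered 14, among them Trim5 and Trim46, and have no such check.

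**Figure D3:**
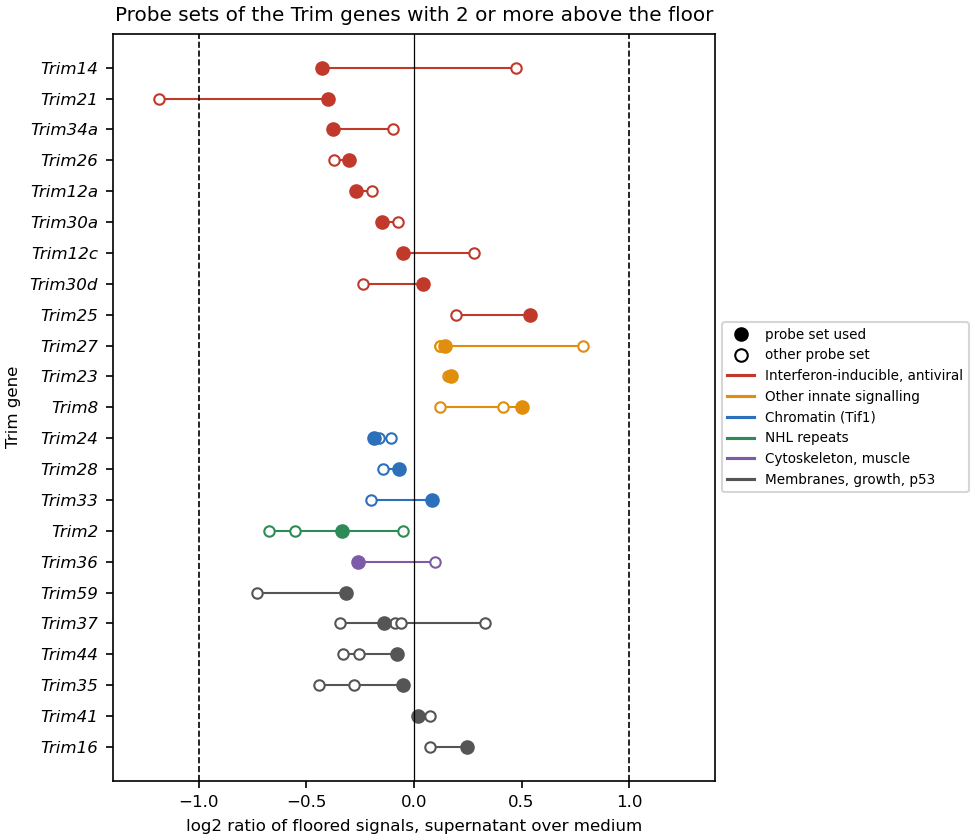
Log2 of the floored supernatant signal over the floored medium signal for every measured probe set of the 23 Trim genes with at least 2, with the probe set used for the gene filled and the others open, coloured by group, and dashed lines at 2-fold. All 3 probe sets of Trim25 lie right of 0, both of Trim21 left of it (-1.18 and -0.40), and those of Trim14 on either side (-0.43 and 0.47).

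Genes of the pathways on which the innate Trim proteins act were read beside them. Of 21 measured genes of the RIG-I, cGAS and TAK1 pathways 0 were at least 1.5-fold higher and 0 lower, and their median log2 ratio was 0.02. Ddx58, which encodes RIG-I, the target of Trim25, read 1255 and 966, 1.30-fold lower. Mavs, the mitochondrial adaptor downstream of it, read 1228 and 1597, 1.30-fold higher. Ifih1, which encodes Mda5, read 2489 and 2446, and Irf7, an interferon-inducible transcription factor, read 1657 and 1680. Tab1, a partner of TAK1, read 199 and 149, 1.34-fold lower.
Of 6 tripartite motif genes with other names, 2 were measured. Pml, the interferon-inducible scaffold of nuclear bodies, read 403 and 328, a log2 ratio of -0.30, which is near the median of the interferon-inducible Trim genes. Other interferon-inducible genes differed, with log2 ratios of 0.02 for Irf7, 0.04 for Dhx58, -0.02 for Ifih1 and -0.38 for Ddx58. Pml thus does not stand for such genes in general. Mefv, which encodes the inflammasome protein pyrin, read 74.0 and 95.5, 1.29-fold higher, and Mid1, Mid2, Triml1 and Rnf207 were under the floor.

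Other scalings of the arrays moved the Trim values little. After median-centring, quantile normalization or loess the median of the interferon-inducible members was between -0.26 and -0.25, with 10 of 12 below 0 each time, and Trim25 lay between 0.52 and 0.57 on the log2 scale. The median of all measured genes moved to between -0.01 and 0.02, and the share of all measured genes below 0 to between 46.4% and 51.6%.

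**Figure D4:**
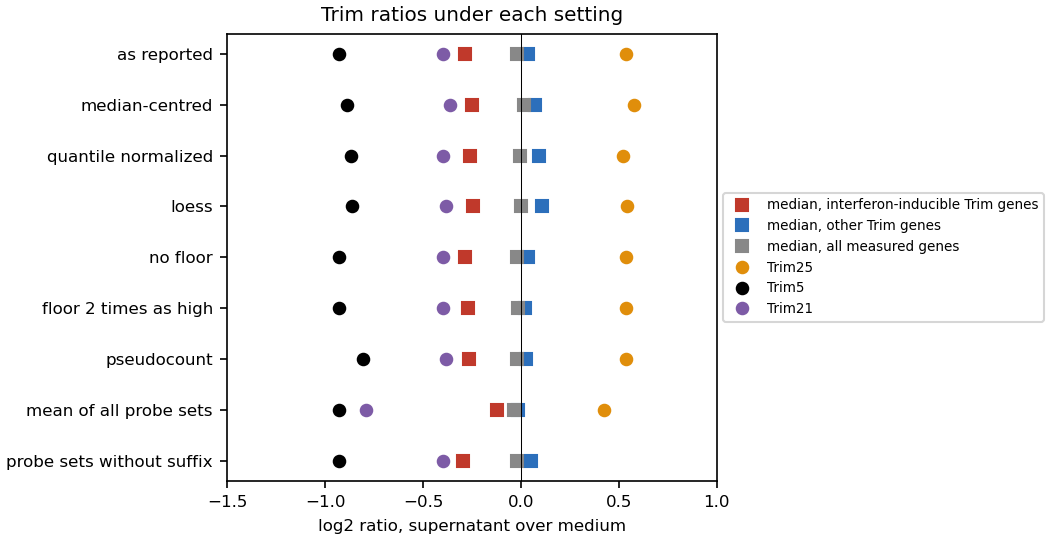
Log2 ratio, supernatant over medium, of Trim25, Trim5 and Trim21 (circles) and the medians of the interferon-inducible Trim genes, the other Trim genes and all measured genes (squares) under each scaling, treatment of dim signals and choice of probe set. The interferon-inducible median is -0.29 as reported and -0.12 with the mean of all probe sets, where Trim21 reads -0.79, and Trim25 has no value with probe sets without a suffix.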

How the data were processed

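RNA of BMDMs with medium and with apoptotic cell supernatant was labelled with biotin and hybridized to Affymetrix Mouse Genome arrays, 1 array per condition. Per the submitters' processing notes MAS5 was used, and the authors deposited its signal for each probe set, an intensity that is not on a log2 scale. The mean trimmed by 2% at each end was 500.0 on both arrays. The genome build is not given in the sources used here.

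Of 45101 probe sets, 34958 had a single gene in the array annotation, 932 several and 9211 were not listed, and symbols were looked up in RefSeq (GRCm38.p6), where 0 changed. The floor is the higher of both arrays' 95th percentiles over the receptor probe sets. Log2 ratios used floored signals, with Python 3.11.15, numpy 2.4.6, pandas 2.3.3, statsmodels 0.14.6 and matplotlib 3.10.9. No test was run, since precision is limited by having 1 array per condition. The steps were tested on simulated data with folds above 2-fold planted in bright genes only. Differences as small as most Trim ratios, or near the floor, were not covered.

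Members and lists were chosen with earlier results of these data known. Given in full are members at least 1.5-fold apart and up to 4 per group with the largest ratios among those above the floor on both arrays, and the others are given more briefly. Alternatives covered scaling (loess span of 30%), dim signals (the floor also as a pseudocount) and the choice of probe set (also without the _s, _x or _a suffix).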

Additional observations from a re-analysis of the deposited data

How the results depend on the processing

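No paired analysis was possible because neither group has a second array. The counts of Trim genes at least 2-fold higher or lower were 0 under each of the other settings tried. The number at least 1.5-fold higher, 1 as reported (Trim46), was 0 with the floor 2 times as high, 0 with the floor as a pseudocount, 2 with the mean of all probe sets (Trim46 and Trim23) and 2 with probe sets without a suffix (Trim46 and Trim27). The number at least 1.5-fold lower, 1 as reported (Trim5), was 2 with no floor (with Trim6) and 3 with the mean of all probe sets (with Trim12a and Trim21). The number of measured Trim genes was 28 with probe sets without a suffix and between 34 and 37 otherwise. The median of all measured Trim genes ran from -0.10 to -0.03, and that of the interferon-inducible members from -0.30 to -0.12 (-0.30 to -0.25 without the mean of all probe sets). Over all 37 measured Trim genes, 274 of 282 single values moved by less than the SD between probe sets. The 8 others on the log2 scale were Trim68 (-0.02) with the higher floor, Trim12a (-0.88), Trim14 (0.02), Trim21 (-0.79), Trim23 (0.64) and Trim27 (0.54) with the mean of all probe sets, and Trim27 (0.79) and Trim34a (-0.10) with probe sets without a suffix. That mean takes in probe sets under the floor. Part of the 282 values could not change, such as bright genes under another floor or genes with 1 probe set under another choice of probe set. The count of 274 is thus no measure of how stable the values are. With 1 array per condition, array-to-array error is not covered by any of these settings.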

Other observations

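Ubiquitin-activating and ubiquitin-conjugating enzymes, most of which serve RING ligases such as the Trim proteins, were read on the same arrays. The list also holds Uba7 (696 and 702) and Ube2l6 (294 and 295), enzymes of the ubiquitin-like protein ISG15. All 16 genes of this list with a probe set of their own were measured, and their log2 ratios of supernatant over medium ran from -0.22 to 0.18, with a median of 0.01. None was 1.5-fold apart. Ube2n and Ube2v1, which together build ubiquitin chains used in innate signalling, read 2155 and 2080, and 4775 and 4792.

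Of 12 partners of the chromatin members Trim24, Trim28 and Trim33, 11 were measured and none was 1.5-fold apart, with a median log2 ratio of -0.09. Cbx3, a heterochromatin protein, read 70.2 and 47.6, 1.48-fold lower on a dim probe set. Mdm2, the ubiquitin ligase of p53, read 2649 and 2117, 1.25-fold lower, and Smad2 read 1078 and 1336, 1.24-fold higher. Setdb1, the histone methyltransferase recruited by Trim28, read 601 and 586.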
